A study of Mus musculus with 7 samples.

Results

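The genes described here form an injury signal of the retina. The 10 genes encode the ligands endothelin 2, LIF and FGF2, and parts of the STAT3 pathway. They also encode receptors for endothelins, LIF and oncostatin M, but none for FGF2. They were picked by symbol as *Edn2*, *Lif*, *Fgf2*, *Ednrb*, *Lifr*, *Osmr*, *Il6st*, *Stat3*, *Socs3* and *Bcl3*, out of the 52550 genes of the count table, and all 10 passed the filter on low counts that left 20128 genes for testing. Total RNA-seq was performed on 7 mice of 12.5 weeks on the C57BL/6J strain, with both retinas of a mouse in 1 library. The groups were 4 WT mice and 3 homozygous SCA7 KI mice (SCA7140Q/140Q), which carry an expanded CAG repeat in the *Atxn7* gene itself and express it from that gene's own promoter. ATXN7 is a subunit of the SAGA coactivator complex. The libraries held between 56497675 and 96635832 counts on genes.

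When photoreceptors are stressed, the retina is known to answer through Müller glia, the radial glia that span all its layers. Endothelin 2 is made by injured photoreceptors and LIF by a subset of Müller glia, and LIF binds LIFR together with the shared signalling chain gp130, which is encoded by *Il6st*. The receptor activates JAK kinases, these phosphorylate STAT3, and STAT3 turns on target genes that include its own feedback inhibitor SOCS3. FGF2 is a survival factor for photoreceptors that is made in the retina after injury and light stress.

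In SCA7 retina, 9 of the 10 genes were upregulated, at an adjusted p under 0.05 with a fold change (FC, SCA7/WT) above 1.3, and none was downregulated. Over all genes tested, 7.47% were upregulated by this rule and 7.91% downregulated. The genes were chosen with earlier results of these data known, so the 9 calls describe the set and are not evidence that it stands apart. The 10 genes had a median log2 FC of 1.91, against -0.02 for all genes tested. Every SCA7 library was above every WT library for the 9 upregulated genes, a separation that 19.3% of all genes tested showed. The exception was the endothelin receptor gene *Ednrb*. Levels are given as CPM, the counts of a gene relative to the library total after TMM scaling, and adjusted p values as edgeR quasi-likelihood p values corrected by Benjamini-Hochberg over all 20128 genes. SE is the standard error of the log2 FC. In whole retina, a change in the number of cells of a type and a change in RNA per cell cannot be told apart.

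**Figure D1:**
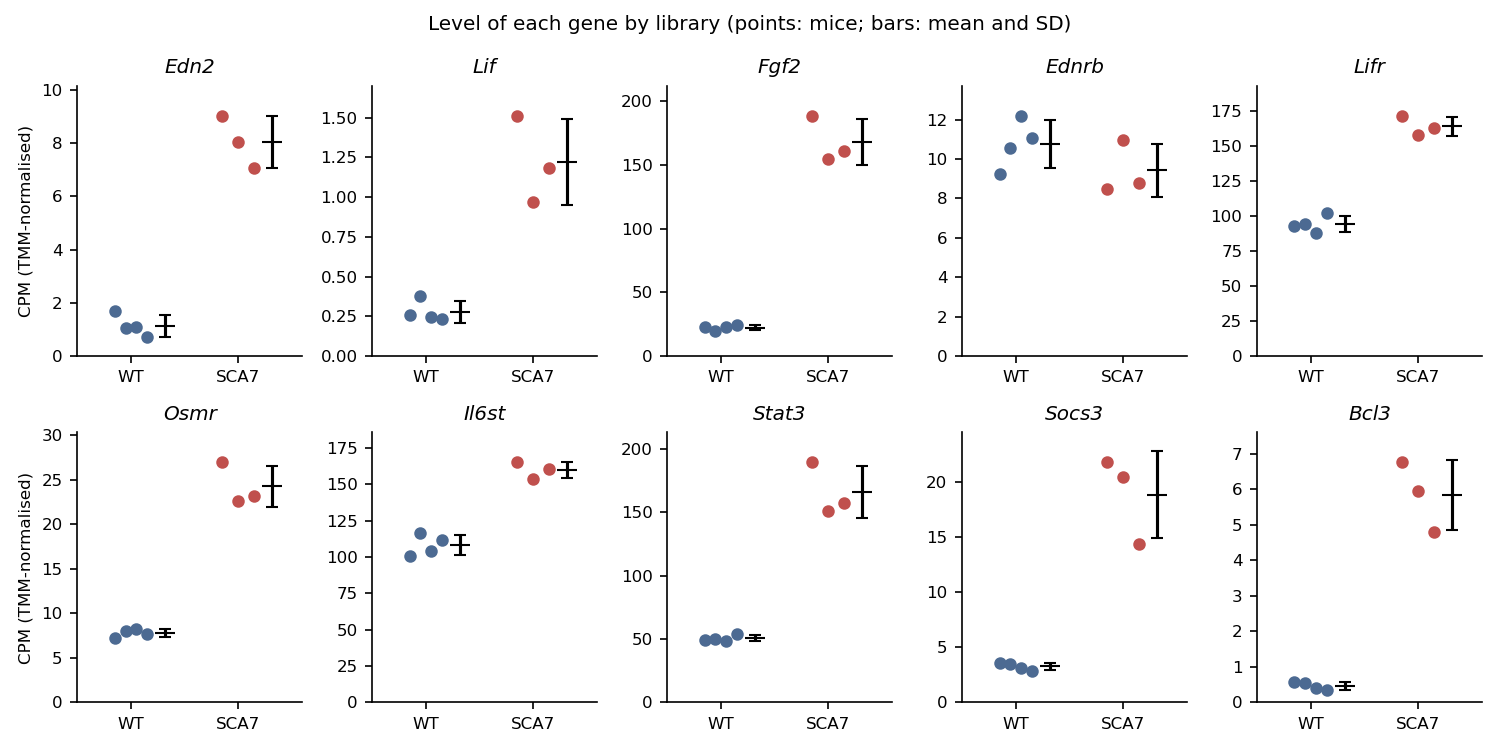
Level of each of the 10 genes in CPM (linear axes from 0) in every library, with a point for each mouse and a bar for the group mean and SD (4 WT, 3 SCA7). The groups overlap for *Ednrb* and are apart for the other 9 genes.

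Promoter sequences of all 10 genes were read from RefSeq (GRCm38.p6) to show which of them carry letters that transcription factors of this pathway are known to bind. Each window held 250 bases before and 50 after the RefSeq start, and *Lifr* had a pair of starts, which gave 11 windows. The gene spans given below come from GENCODE and can begin elsewhere. The windows of *Fgf2*, *Ednrb*, *Lifr*, *Osmr* and *Socs3* lie inside those spans. The STAT site TTCNNNGAA, which reads the same on both strands, was in the window of *Socs3* and in none of the other windows. Of all 32851 promoter windows of this length, 8.3% hold it. The *Socs3* window is shown because this gene is the feedback arm of the pathway. It lies at chr11:117969317-117969616 on the minus strand, is given 5′ to 3′, and has the STAT site in capitals, starting 154 bases before the RefSeq start:

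Socs3: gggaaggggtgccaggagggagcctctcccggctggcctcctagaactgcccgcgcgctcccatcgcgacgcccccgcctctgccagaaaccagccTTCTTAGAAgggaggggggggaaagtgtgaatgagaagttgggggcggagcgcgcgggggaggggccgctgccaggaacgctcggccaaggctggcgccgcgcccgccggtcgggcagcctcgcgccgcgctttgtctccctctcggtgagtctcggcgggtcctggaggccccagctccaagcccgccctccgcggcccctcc

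The AP-1 site was searched on both strands as TGANTCA, which leaves open a middle base that is C or G in the consensus. This looser pattern was in the windows of *Lif* and *Osmr* and in 7.81% of all windows. Only the match of *Lif*, TGACTCA, has the consensus letters, and that of *Osmr* is TGATTCA. The NF-kB consensus, also searched on both strands, was found among the 11 windows only in that of *Bcl3*, which encodes a partner of NF-kB, and in 4.51% of all windows. These sites are shown with 9 bases on either side and the match in capitals, at chr11:4257331-4257355 (plus strand), chr15:6874295-6874319 (minus strand) and chr7:19822735-19822762 (minus strand). A match of letters is not a measured binding site, and a window without a match shows only that the letters are absent from it.

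Lif: agtcagctgTGACTCAggccatagt
Osmr: ccccgtagtTGATTCAtagctgggg
Bcl3: cggcggcagGGGAAGTCCCgctgcccgg

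Of the ligands, *Edn2* (ENSMUSG00000028635; chromosome 4 from 120161206 to 120167360 of mm10) encodes the vasoactive peptide endothelin 2. Its levels were 1.67, 1.06, 1.07 and 0.704 CPM in the WT libraries and 9.02, 8.03 and 7.08 CPM in the SCA7 libraries. The lowest SCA7 mouse was 4.23 times the highest WT mouse, although the WT mice differed among themselves by up to 2.38 times, the widest WT spread of the 10 genes. The WT mean was 1.13 ± 0.403 CPM (SD, n = 4). The SCA7 mean was 8.04 ± 0.972 CPM (SD, n = 3), for a log2 FC of 2.84 (SE 0.21, edgeR adjusted p = 3.8e-06).

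*Lif* (ENSMUSG00000034394; chromosome 11 from 4257557 to 4272514) encodes the cytokine leukemia inhibitory factor, and was the least abundant of the genes. It had 15, 27, 13 and 15 counts in the WT libraries, or 0.256, 0.377, 0.244 and 0.229 CPM. In the SCA7 libraries it had 93, 83 and 122 counts, or 1.51, 0.973 and 1.19 CPM. Despite these low counts the groups did not overlap, and the log2 FC was 2.11 (SE 0.23, edgeR adjusted p = 4.1e-05).

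*Fgf2* (ENSMUSG00000037225; chromosome 3 from 37348346 to 37410108) encodes basic fibroblast growth factor and had the highest level per length of the 3 ligands. WT libraries had 22.5, 19.9, 22.6 and 24.1 CPM and SCA7 libraries 188, 154 and 161 CPM. The rise was 7.53-fold, with a log2 FC of 2.91 (SE 0.08, edgeR adjusted p = 1.7e-09), and was the 34th largest increase among all genes tested. The *Fgf2* locus also holds genes on the opposite strand, and the sources used here do not state whether the counting used strand. One of them, the antisense transcript *Fgf2os*, shares 1395 bases with *Fgf2* and went from 0.977 to 7.13 CPM, a log2 FC of 2.88 (SE 0.33, edgeR adjusted p = 4.7e-04). The convergent gene *Nudt6*, which shares 5199 bases with *Fgf2*, went from 2.74 to 3.99 CPM, a log2 FC of 0.54 (edgeR adjusted p = 0.0060). *Gm42923*, inside the gene, went the other way, from 3.33 to 2.38 CPM (log2 FC -0.49, edgeR adjusted p = 0.012). These genes were looked up after the values were seen, because they overlap *Fgf2*.

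Among the receptors, *Osmr* (ENSMUSG00000022146; chromosome 15 from 6813577 to 6874969), the signalling chain for oncostatin M, changed most. It had 7.23, 7.97, 8.21 and 7.69 CPM in the WT libraries and 26.9, 22.6 and 23.2 CPM in the SCA7 libraries. All SCA7 mice were at least 2.75 times the highest WT mouse, and the log2 FC was 1.64 (SE 0.08, edgeR adjusted p = 1.1e-07).

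*Lifr* (ENSMUSG00000054263; chromosome 15 from 7090614 to 7197489), the specific chain of the LIF receptor, had 93.0, 94.4, 88.0 and 102 CPM in WT and 171, 158 and 163 CPM in SCA7. Its log2 FC was 0.80 (SE 0.06, edgeR adjusted p = 3.4e-06). *Il6st* (ENSMUSG00000021756; chromosome 13 from 112464070 to 112510086), the gp130 chain shared by the cytokines of the IL-6 family, had 101, 116, 104 and 112 CPM in WT and 165, 154 and 161 CPM in SCA7. The log2 FC of 0.56 (SE 0.06, edgeR adjusted p = 5.7e-05) was the smallest of the upregulated genes, and the lowest SCA7 mouse was 1.32 times the highest WT mouse.

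*Ednrb* (ENSMUSG00000022122; chromosome 14 from 103814625 to 103844402) encodes the endothelin receptor type B, the receptor through which glia respond to endothelins. It had 9.22, 10.6, 12.2 and 11.1 CPM in the WT libraries and 8.50, 11.0 and 8.81 CPM in the SCA7 libraries, so the groups overlapped. The log2 FC was -0.19 (SE 0.11, edgeR adjusted p = 0.24), with a 95% interval from -0.41 to 0.03. That interval leaves out a rise as large as that of any of the other receptor genes, whose lowest 95% limit was 0.43 for *Il6st*. With libraries scaled by their totals, the value was 0.00.

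*Stat3* (ENSMUSG00000004040; chromosome 11 from 100885098 to 100939540), the transcription factor that carries the signal to the nucleus, was at 49.5, 50.1, 48.4 and 54.2 CPM in WT and at 189, 151 and 157 CPM in SCA7. The WT mice were closer to each other in this gene than in any of the other 9. Its log2 FC was 1.71 (SE 0.08, edgeR adjusted p = 6.4e-08).

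*Socs3* (ENSMUSG00000053113; chromosome 11 from 117966079 to 117970047), the feedback inhibitor that binds gp130 and JAK kinases, whose STAT site is printed above, had 3.54, 3.50, 3.11 and 2.88 CPM in WT. In SCA7 it had 21.7, 20.4 and 14.3 CPM, the lowest of them still 4.06 times the highest WT value. The log2 FC was 2.53 (SE 0.14, edgeR adjusted p = 2.9e-07).

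*Bcl3* (ENSMUSG00000053175; chromosome 7 from 19808462 to 19822770) encodes an atypical IkB protein that works in the nucleus with NF-kB subunits. It had the largest fold change of the 10 genes and the 19th largest increase of all genes tested. With 34, 39, 21 and 22 counts it was at 0.581, 0.545, 0.394 and 0.337 CPM in WT, and with 416, 509 and 493 counts at 6.76, 5.96 and 4.79 CPM in SCA7. The difference was 12.5-fold, a log2 FC of 3.64 (SE 0.19, edgeR adjusted p = 1.5e-07). An antisense transcript within the gene, *Gm16174*, went from 0.0669 to 0.810 CPM (log2 FC 3.51, edgeR adjusted p = 3.0e-05), and without a stated strand setting the reads of such a pair are not separated with certainty.

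**Figure D2:**
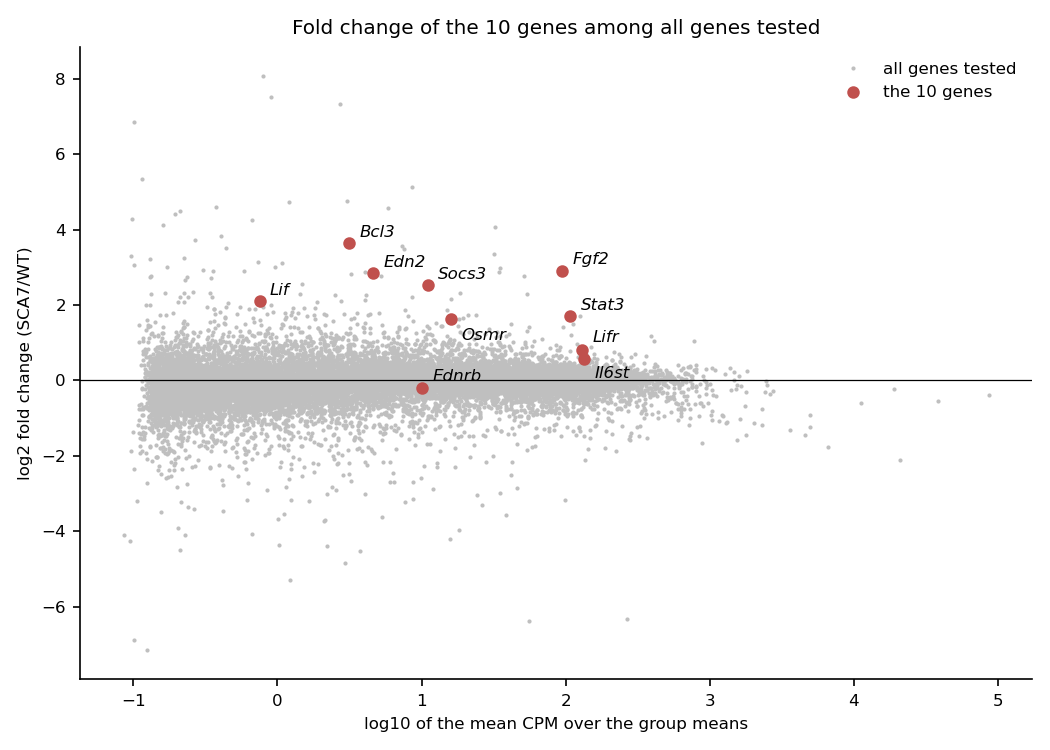
Fold change (log2, SCA7/WT, vertical axis) against the mean level (log10 CPM, horizontal axis) of all 20128 genes tested in grey, with the 10 genes in red. *Bcl3*, *Fgf2*, *Edn2*, *Socs3*, *Lif*, *Stat3* and *Osmr* lie in the upper edge of the grey cloud or above it, and *Ednrb* lies within it at -0.19.

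The SCA7 mice differed in the level of the 9 upregulated genes. The highest mouse was 1.07 times the lowest for *Il6st*, the narrowest spread, and 1.55 times for *Lif*, the widest. SCA7 replicate 1 had the highest level of the 3 SCA7 mice in all 9 upregulated genes, and the lowest level of *Ednrb*. It was also the smallest library, at 56497675 counts. The 9 orders come from the same mice and are not independent. SCA7 replicate 2 was the lowest in 6 of the 9 genes and replicate 3 in the other 3. Summed levels of 8 rod marker genes were 15274, 18677 and 20064 CPM in SCA7 replicates 1, 2 and 3, and those of 6 cone marker genes 178, 192 and 199 CPM, so replicate 1 was the lowest for both. The Müller glia sum, at 5814, 5480 and 5590 CPM, and the sum of the astrocyte list, at 62.6, 61.6 and 59.8 CPM, were highest in replicate 1. The astrocyte list was *Pax2*, *S100b*, *Aldh1l1* and *Igf2*. *Pax2* had at most 16 counts, so the sum came almost wholly from the other genes, whose specificity for astrocytes was not tested. Microglial markers were highest in replicate 2, at 172, 188 and 168 CPM. With 3 mice, the relation of these sums to the injury genes was not tested. No WT mouse stood out in the same way: WT replicates 1 and 4 were each the highest of their group in 3 of the 9 genes. Without SCA7 replicate 1, all 9 genes remained upregulated, with log2 FCs of 2.82 for *Fgf2*, 1.95 for *Lif* and 1.61 for *Stat3*.

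Levels were compared between genes as reads per kilobase (RPK), counts over the DESeq2 size factor and over the median transcript length. In WT retina the order by RPK was *Stat3* at 4660 ± 237, *Fgf2* at 3044 ± 234, *Il6st* at 2691 ± 179, *Lifr* at 2090 ± 133 and *Socs3* at 459 ± 45.2 (SD, n = 4). Below these came *Ednrb* at 186 ± 21.1, *Osmr* at 174 ± 9.55, *Bcl3* at 53.6 ± 13.6, *Edn2* at 53.2 ± 19.0 and *Lif* at 5.03 ± 1.25. The neighbours *Fgf2* and *Il6st*, *Ednrb* and *Osmr*, and *Bcl3* and *Edn2* do not differ beyond their SDs. In SCA7 retina *Fgf2* led at 23136 ± 2556 RPK (SD, n = 3) and *Stat3* followed at 15406 ± 1948 RPK. *Ednrb*, at 164 ± 22.6 RPK, ranked 9th of the 10 genes instead of 6th. *Lif* remained the lowest in both genotypes, at 22.4 ± 5.05 RPK in SCA7.

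This order depends on the length used, because the median transcript of *Fgf2*, *Stat3*, *Socs3* and *Bcl3* is short, at 0.51, 0.75, 0.49 and 0.60 kb, against 6.78, 9.53, 2.89 and 2.48 kb for the union of their exons. With the union of exons, *Il6st* and *Lifr* were the highest in WT at 673 and 605 RPK, followed by *Stat3* at 366 RPK, *Fgf2* at 227 RPK and *Ednrb* at 174 RPK. In SCA7 the order then began with *Fgf2* at 1724 RPK, *Stat3* at 1211 RPK, *Lifr* at 1061 RPK and *Il6st* at 1003 RPK. By either length *Fgf2* was first in SCA7 and *Lif* was last in both genotypes.

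How far members of a complex or a loop differed in their change is described by ratios within each library, whose difference between genotypes does not depend on length or library scaling. The 7 pairs of genes were chosen after the values were seen, so no test is given. The difference of the log2 ratio (SCA7 minus WT) was 1.07 for *Osmr* to *Il6st*, 0.84 for *Osmr* to *Lifr* and 0.24 for *Lifr* to *Il6st*. It was 0.81 for *Socs3* to *Stat3*, 1.97 for *Bcl3* to *Stat3*, 3.09 for *Edn2* to *Ednrb* and -0.76 for *Lif* to *Fgf2*.

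Since *Ednrb*, *Lifr* and *Stat3* are known to be used by Müller glia, each gene was also set against 10 Müller glia markers in the same library. The mean log2 CPM of these markers ranged from 7.37 to 7.57 in the WT libraries and from 7.65 to 7.77 in the SCA7 libraries, a difference of 0.20 (exact two-sided permutation test, p = 0.0286). Without the marker *Clu* the difference was 0.10 and the groups overlapped (exact permutation test, p = 0.171). Their summed CPM overlapped between the genotypes, at 5050 to 6023 in WT and 5480 to 5814 in SCA7. Relative to the markers, all 9 upregulated genes were still higher in every SCA7 library than in every WT library. On the same ratio, 6.64% of all genes tested were apart in this direction and 34.7% in the other. Differences ranged from 0.36 for *Il6st* and 0.60 for *Lifr* to 2.71 for *Fgf2* and 3.45 for *Bcl3* (exact permutation test, p = 0.0286 for each, the smallest possible). This p only restates that the groups were apart. The genes were chosen with earlier results of these data known, so it describes them and is not further evidence. *Ednrb* was lower relative to the markers by a difference of -0.39, with every SCA7 library below every WT library (exact permutation test, p = 0.0286). The list itself was uneven, since its marker *Clu* rose by a log2 FC of 1.04 while *Glul*, the glutamine synthetase gene, had -0.36. Without *Clu*, the difference for *Ednrb* was -0.30 and its groups overlapped (exact permutation test, p = 0.114), since SCA7 replicate 2, at -3.94, lay above 3 of the 4 WT libraries. The lower *Ednrb* ratio therefore passed the test only with *Clu* among the markers. The 9 upregulated genes stayed apart without it, at 0.46 for *Il6st* and 0.69 for *Lifr*.

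**Figure D3:**
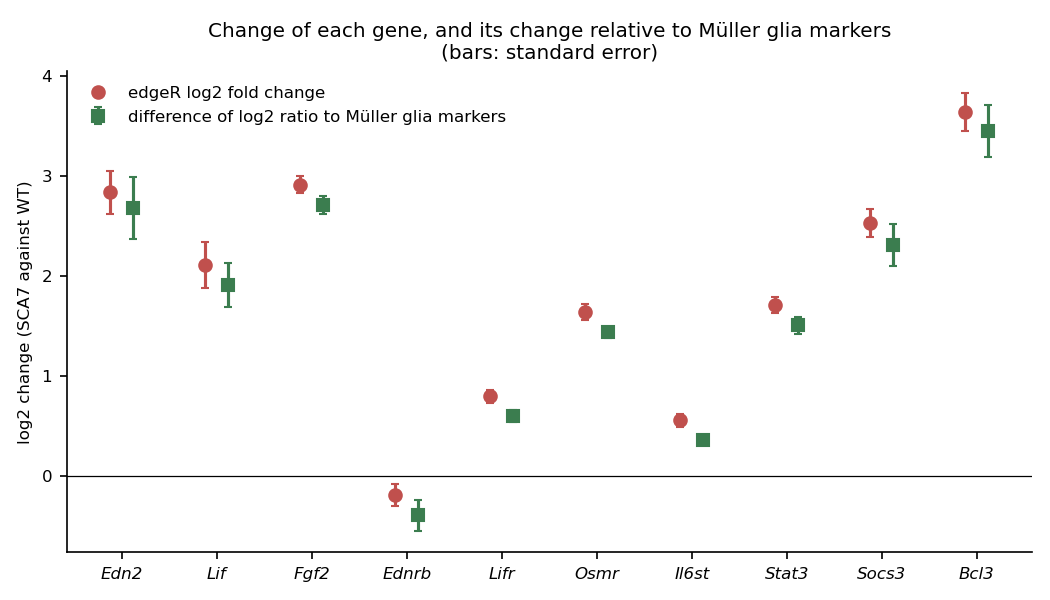
Log2 change of each of the 10 genes between SCA7 and WT (red circles, edgeR, bars are standard errors) beside the change of its log2 ratio to the mean of 10 Müller glia markers (green squares, bars are standard errors from the group SDs). Each green value lies below its red one, and *Ednrb* is below 0 in both.

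Markers of other cell types moved with the genotype too. All 10 microglial markers were upregulated, with a median log2 FC of 0.93 and summed levels of 80.2 to 100 CPM in WT and 168 to 188 CPM in SCA7. All 8 rod and all 6 cone markers were downregulated, with medians of -1.34 and -2.64. Of 8 markers of endothelium and pericytes 3 were upregulated, with sums of 240 to 285 CPM in WT and 325 to 370 CPM in SCA7. Most of this sum was *Kdr* (106 to 171 CPM) and *Rgs5* (94.5 to 115 CPM). The log2 FC was above 0 in 5 of the markers. It was below 0 for *Cldn5* at -0.48 (edgeR adjusted p = 0.011), *Kcnj8* at -0.09 and *Pecam1* at -0.01. Of 3 genes of the astrocyte list tested 1 was upregulated, with sums of 41.1 to 49.5 CPM in WT and 59.8 to 62.6 CPM in SCA7. Pigment epithelium markers were downregulated in 3 of 6 genes, at 74.7 to 153 CPM in WT and 16.4 to 35.5 CPM in SCA7. Markers of blood-derived leukocytes were near the detection limit, at 0.505 to 0.922 CPM in WT and 0.729 to 0.991 CPM in SCA7, and none of the 4 tested was called. Lens markers ranged from 34.5 to 432 CPM in WT and from 24.2 to 676 CPM in SCA7 with 0 of 4 called, and red blood cell markers from 54.5 to 76.7 and from 30.5 to 61.7 CPM with 1 of 5 downregulated. Their part in the changes of the injury genes was not tested. *Atxn7* was at 33.7 to 43.7 CPM in WT and 34.2 to 39.9 CPM in SCA7, and counts per gene do not show the repeat. All 7 libraries had at least 16943 counts on 4 Y-linked genes and at most 19 counts on *Xist*, so sex did not differ between the groups.

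The remaining genes of the pathway were followed in 8 lists with 84 genes, of which 78 were tested. Of these 78 genes, 18 were upregulated and 4 downregulated, and the median log2 FC was 0.16. Over all 20128 genes tested, the same calls took in 7.47% and 7.91%. These lists were written with earlier results of these data known, and no enrichment was tested.

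In the endothelin system, none of the 6 genes beside *Edn2* and *Ednrb* was upregulated and 2 were downregulated, with a median log2 FC of -0.22. *Edn3*, the gene of endothelin 3, had 3.62, 1.54, 1.24 and 2.13 CPM in WT and 0.764, 0.973 and 0.535 CPM in SCA7 (log2 FC -1.50, SE 0.38, edgeR adjusted p = 0.019). *Ecel1*, a gene of the endothelin-converting enzyme family, had -1.59 (SE 0.45, edgeR adjusted p = 0.027), with groups that overlap. The call of *Edn3* was lost without WT replicate 4, SCA7 replicate 1 or SCA7 replicate 3 (edgeR adjusted p = 0.0547 to 0.0753), and that of *Ecel1* without WT replicate 1 or 3 or SCA7 replicate 1 or 2 (edgeR adjusted p = 0.0521 to 0.0995). Without a filter beyond 1 count both calls were lost too, at edgeR adjusted p = 0.103 for *Edn3* and 0.129 for *Ecel1*. *Edn1*, the gene of endothelin 1, had -0.43 (edgeR adjusted p = 0.016), which did not pass the fold change limit, and the receptor gene *Ednra* had -0.02 (edgeR adjusted p = 0.96).

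None of the 6 other ligands of the IL-6 family that could be tested was called, with a median of 0.26. *Il11* had a log2 FC of 0.65 (adjusted p = 0.23), *Cntf*, the gene of ciliary neurotrophic factor, -0.50 (adjusted p = 0.43) and *Clcf1* 0.30 (adjusted p = 0.24), all from edgeR. *Il6* had 2, 0, 0 and 0 counts in WT and 2, 0 and 2 in SCA7, and *Osm*, the ligand of OSMR, had 1, 1, 2 and 1 counts in WT and 2, 1 and 5 in SCA7. Both were filtered out as too low to test, so the upregulated *Osmr* had a ligand gene at the limit of detection in whole retina. A count of 0 allows up to 3 counts, or 0.0292 to 0.0563 CPM in these libraries, for counting error only. Of the 4 other receptor genes tested 1 was called, *Il6ra*, the specific chain for IL-6, which went from 0.410 ± 0.0758 to 0.768 ± 0.0672 CPM (log2 FC 0.89, SE 0.20, edgeR adjusted p = 0.0064). *Cntfr* had -0.19 (edgeR adjusted p = 0.22).

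Of 9 JAK kinases and other STATs tested, 3 were upregulated and none downregulated, with a median of 0.21. *Jak3*, a kinase known best from immune cells, stood out with between 1.07 and 1.49 CPM in WT against 9.85, 9.19 and 8.46 CPM in SCA7, a log2 FC of 2.78 (SE 0.12, edgeR adjusted p = 4.6e-08). The markers of microglia, which are immune cells, had a median log2 FC of 0.93, and their part in the *Jak3* value was not tested. *Stat5a* had a log2 FC of 0.50 (edgeR adjusted p = 0.0035). *Stat5a* shares 72 bases with *Stat3* on the opposite strand. Among 14 inhibitors of the pathway other than *Socs3*, 1 was upregulated, the phosphatase gene *Ptpn6*, with a log2 FC of 0.77 (SE 0.18, edgeR adjusted p = 0.0073), and the median was 0.06.

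Of 17 STAT3 target genes tested, 8 were upregulated and none downregulated, with a median log2 FC of 0.61. *Serpina3n*, a protease inhibitor of reactive astrocytes and Müller glia, was at 5.42, 5.17, 7.73 and 4.41 CPM in WT and at 64.4, 50.9 and 58.9 CPM in SCA7 (log2 FC 3.36, SE 0.17, edgeR adjusted p = 3.1e-06). *Timp1*, an inhibitor of matrix metalloproteinases, had a log2 FC of 3.13 (SE 0.28, edgeR adjusted p = 8.6e-06). *A2m*, an acute phase protease inhibitor, went from 13.2 ± 1.48 to 89.8 ± 13.4 CPM (log2 FC 2.76, edgeR adjusted p = 3.9e-08), and was highest in SCA7 replicate 1, at 105 CPM, whereas *Timp1* was highest in replicate 3, at 2.24 CPM. The other upregulated targets were *Gfap*, *Vim*, *Cebpd*, *Junb* and *Icam1*.

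In the FGF system of 13 genes beside *Fgf2*, 2 were upregulated and 1 downregulated, with a median of 0.05. The receptor gene *Fgfr1* had a log2 FC of 0.40 (SE 0.07, edgeR adjusted p = 0.0016), which no longer passed the fold change limit without WT replicate 3, at 0.37, or without SCA7 replicate 1, at 0.34. *Spry1*, a feedback inhibitor of FGF signalling, had 0.52 (adjusted p = 0.0030) and *Etv4*, a transcription factor induced by FGF, had -0.75 (adjusted p = 5.9e-04), both from edgeR. In the NF-kB family beside *Bcl3*, 3 of 9 genes were upregulated and 1 downregulated, with a median of 0.29. *Nfkb2*, whose product p52 is a partner of BCL3, had a log2 FC of 1.11 (SE 0.13, edgeR adjusted p = 5.4e-05), and *Nfkbie*, an IkB gene, had 0.74 (edgeR adjusted p = 5.5e-04). *Nfkb1*, whose product p50 also binds BCL3, was downregulated at -0.56 (edgeR adjusted p = 8.4e-04), but did not pass the fold change limit with libraries scaled by their totals, at -0.36, or without WT replicate 3, at -0.46.

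**Figure D4:**
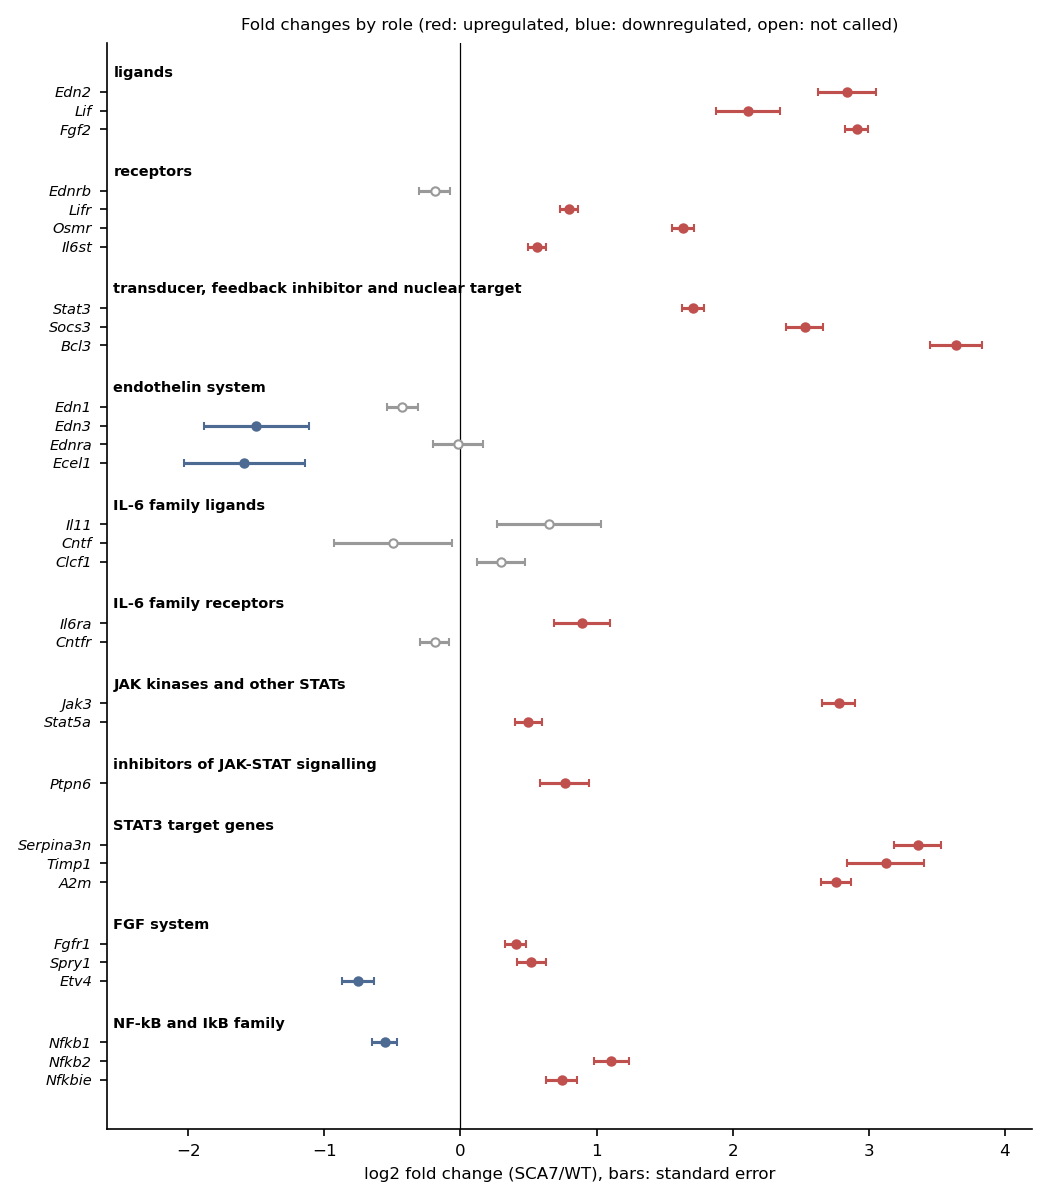
Log2 FC (SCA7/WT, horizontal axis, bars are standard errors) of the 10 genes and of the pathway genes given in the text, ordered by role. Red marks upregulated, blue downregulated and open symbols uncalled genes. *Bcl3* lies furthest to the right at 3.64, and *Edn3* and *Ecel1* furthest to the left.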

How the data were processed

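Total RNA depleted of ribosomal RNA was sequenced in a stranded protocol from the retinas of 4 WT and 3 SCA7 mice. The authors aligned the reads to mm10 with TopHat2 2.0.14 and Bowtie2 2.1.0 and deposited raw read counts per Ensembl gene from HTSeq 0.6.1. The strand setting of the counting is not given in the sources used here. Gene IDs were named with GENCODE, which matched 52403 of 52550.

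Counts were analysed with edgeR 4.0.16 in R 4.3.3 (TMM scaling, expression filter, robust quasi-likelihood test, Benjamini-Hochberg adjustment over 20128 genes). A gene was called at an adjusted p under 0.05 with FC above 1.3 or under 0.7. The fit was tested on simulated data. CPM used TMM-scaled library sizes. RPK used DESeq2 1.42.0 size factors. Log2 ratios to Müller glia markers used a pseudocount of 0.01 CPM and exact two-sided permutation tests over 35 splits. Depth was 59902546 to 74733202 counts in WT and 56497675 to 96635832 in SCA7, where 1 count is 0.00972 to 0.0188 CPM.

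Alternatives were the library scaling, the test (DESeq2, limma-voom with limma 3.58.1), the filter, an *Xist* covariate, the replicate number as a block, the call rule, the length and each library left out. The genes, lists and tests were chosen with earlier results of these data known. Named were the 10 genes, up to 3 called genes of each list by size of change, and the partner ligands and receptors. Markers and targets beyond these, overlapping genes and pairs of genes were chosen after their values were seen. Each library was 1 mouse, per the study's methods. The values of 1 called pathway gene were left out of the text and figures.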

Additional observations from a re-analysis of the deposited data

Results flagged for a closer look

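Of 34 groups of values screened, 2 had a WT library far from the other WT libraries by Dixon's ratio of gap to range at the 95% level, which chance gives in about 1 of 20 groups. *Il6* was at 0.0342 CPM in WT replicate 1, from 2 counts, with 0 counts in the other WT libraries. *Osm* was at 0.0375 CPM in WT replicate 3, also from 2 counts, with 1 count in each of the other WT libraries and a ratio of 0.868. Both values rest on counts at or below the limit of 3 counts that a count of 0 allows.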

How the results depend on the processing

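The 9 upregulated genes kept their call in each of 16 alternatives, with 9 upregulated and 0 downregulated in every fit that left out 1 library. *Ednrb* was 0.0031 (log2) with library totals in place of TMM, a scaling that moved the median of all genes from -0.02 to 0.17. *Ednra* changed sign to 0.17 with library totals, 0.0038 without a filter beyond 1 count, 0.085 without WT replicate 2 and 0.0031 without WT replicate 3, and ranged from -0.077 to 0.085 over the fits that left out 1 library. With library totals, 31 pathway genes instead of 18 and 23 marker genes instead of 15 were upregulated, and over all genes 3681 were upregulated and 978 downregulated instead of 1504 and 1592. The 4 downregulated pathway genes became 2 without the filter and 8 without the fold change limit. Leaving out 1 library gave 2 to 4 of them (2 without WT replicate 3 and 2 without SCA7 replicate 1), and 16 to 19 upregulated. Without the fold change limit 2853 genes were higher and 2852 lower. With the union of exons, the median RPK of the 10 genes was 126 instead of 322 in WT and 418 instead of 1677 in SCA7. Of 125 alternative counts and medians, 117 stayed within 1.5 times the count or 1 SD of the median. Of 1375 values for single genes or lists, 1288 kept their direction and side of the threshold, or stayed within the spread between mice where there was no test.

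The labels number the libraries in both genotypes, and same-numbered libraries correlated at 0.0096, 0.197 and 0.0787. Libraries of unlike number correlated at -0.203 to 0.135. A further number in the titles also lies close together for same-numbered libraries, and its meaning is not given. The main fit did not pair the libraries, and whether they are paired is not known. With the replicate block, 9 of the 10 genes were upregulated and 0 downregulated, pathway genes 18 and 5, marker genes 18 and 19, and all genes 1629 and 1706. Only SCA7 replicate 2 correlated best with its own number. With 3 SCA7 mice, and 13 to 27 counts of *Lif* in WT, small changes of low genes are beyond this depth.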

Other observations

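The genes whose level most resembled the mean standardised level of the 10 genes over the 7 libraries were *Ccdc167* (Pearson r = 0.999), *Gpr162* (0.998), *Bbc3* (0.997), *Slc7a4* (0.997) and *Ttyh2* (0.997). They were taken from all tested protein-coding genes outside the lists. All 7 libraries share the genotype difference, so a high r describes mainly a gene that is apart between the genotypes with little spread within them. *Bbc3*, the gene of the pro-apoptotic protein PUMA, was at 1.91 ± 0.0858 CPM in WT (SD, n = 4) and 3.58 ± 0.246 CPM in SCA7 (SD, n = 3), a log2 FC of 0.91 (edgeR adjusted p = 1.1e-04). *Ttyh2*, which encodes a chloride channel family protein, had the largest change of the 5 genes, from 58.5 ± 2.26 to 165 ± 7.96 CPM (edgeR adjusted p = 2.1e-08). *Gpr162* had a log2 FC of 0.58, *Slc7a4* of 0.76 and *Ccdc167* of 0.36.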
